A study of Mus musculus with 23 samples.

Results

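The genes described here are 10 genes that vascular endothelial cells of the lung express: Pecam1, Cdh5, Kdr, Tek, Calcrl, Ramp2, Ednrb, Ace, Plvap and Vwf. They were chosen by symbol, with earlier results of these data known. All 10 were present among the 24411 genes of the deposited count and FPKM tables. Bulk RNA sequencing covered 23 libraries of C57BL/6 mouse lung in 7 groups, from wild-type (WT) mice and mice lacking Rarres1 (Rarres1-KO, here KO). Lungs of both genotypes were taken from embryos at day 19.5 (E19.5) and from mice aged 10 or 18 months, with 3 libraries in each group except the non-tumour KO lung at 18 months, which had 5. A further 3 libraries came from lung tumours of KO mice at 18 months. All mice were untreated and kept under pathogen-free barrier conditions, and the postnatal mice were male. The labels give neither the sex of the embryos, nor how the Rarres1 allele was made, nor the histology of the tumours. The animal codes 1, 3 and 6 occur both among the tumours and among the 5 KO lungs (1, 2, 3, 6 and 7), and libraries sharing a code were taken as 1 animal. The labels do not say whether embryos shared a litter, so p-values here refer to variation among the sequenced libraries.

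Endothelial cells line the blood vessels, and in the lung most of them form the capillary bed through which gas exchange takes place. They hold together through junction proteins, respond to growth factors through receptor tyrosine kinases, and set vessel tone and permeability through peptide receptors and surface enzymes. Lung capillaries contain general capillary cells, marked by genes such as Gpihbp1, and aerocytes, which carry Car4 and Ednrb and lie along the gas-exchange surface. Larger vessels and veins are the main sites of Vwf. The RNA came from whole tissue, and in bulk samples fewer cells of a type and less RNA per cell cannot be told apart.

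Libraries held between 23.7 and 46.6 M counts (M, mega). Member genes had between 491 counts (Ednrb in tumour 1) and 76813 counts in a library. Rarres1 itself had 24 to 64 counts in each WT library and 0 or 1 in each KO library and tumour. Levels across libraries are given as CPM, counts per M counts of the library after scaling with edgeR's TMM factors, and levels between genes as the authors' FPKM (fragments per kilobase of transcript, scaled to library size), which correct for gene length. A gene is called changed where the p-value of edgeR's quasi-likelihood test, adjusted over all tested genes, is under 0.05.

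On GRCm38, Pecam1 lies at chr11:106654217-106750628, Cdh5 at chr8:104101625-104144511, Kdr at chr5:75932827-75978458, Tek at chr4:94739289-94874976 and Calcrl at chr2:84330626-84425411. Ramp2 lies at chr11:101246028-101259546, Ednrb at chr14:103814625-103844402, Ace at chr11:105967945-105989964, Plvap at chr8:71497765-71511752 and Vwf at chr6:125546774-125686679. In the GENCODE annotation of this build Ramp2 shares 1103 exon bases with Vps25 on the same strand. Ace shares 295 with Gm11651 on the other strand. The authors' gene entries list RefSeq transcripts instead, and overlaps among those were not examined. Whether reads from the shared stretches were split between the genes is thus not known. The values of both carry that uncertainty.

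Promoter sequence from RefSeq (GRCm38.p6) was at hand for 5 of the 10 genes: Kdr, Tek, Ace, Ednrb and Calcrl. The 250 bases before the start of Tek, Ace and Kdr are shown because these genes moved from embryo to adult by a large, an intermediate and a small step. Capitals mark GGAA or its reverse complement TTCC, the core that ETS-family transcription factors, including the endothelial factors Erg and Fli1, recognise. The Tek window is chr4:94739039-94739288 on the plus strand, the Ace window chr11:105967698-105967947 on the plus strand and the Kdr window chr5:75978456-75978705 on the minus strand. Ace has a second RefSeq start, whose window (chr11:105974939-105975188) is not shown and held 0 matches to either motif below. The last 3 bases of the printed Ace and Kdr windows lie in an annotated exon.
Tek: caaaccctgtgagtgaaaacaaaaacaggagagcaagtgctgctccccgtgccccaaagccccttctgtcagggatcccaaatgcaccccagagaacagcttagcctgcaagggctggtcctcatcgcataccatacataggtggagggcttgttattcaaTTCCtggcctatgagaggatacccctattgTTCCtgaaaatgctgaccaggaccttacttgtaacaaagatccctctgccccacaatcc
Ace: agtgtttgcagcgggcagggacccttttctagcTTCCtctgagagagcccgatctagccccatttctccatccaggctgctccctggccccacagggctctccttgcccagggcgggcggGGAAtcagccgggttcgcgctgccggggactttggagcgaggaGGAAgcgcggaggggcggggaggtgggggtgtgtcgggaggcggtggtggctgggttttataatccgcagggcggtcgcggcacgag
Kdr: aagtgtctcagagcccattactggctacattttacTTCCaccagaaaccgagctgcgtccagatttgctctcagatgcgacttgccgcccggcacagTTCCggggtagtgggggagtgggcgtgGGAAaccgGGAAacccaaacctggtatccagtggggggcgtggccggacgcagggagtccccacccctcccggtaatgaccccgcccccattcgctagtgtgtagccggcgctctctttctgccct
The core occurred 2 times in the Tek window, 3 times in the printed Ace window and 4 times in the Kdr window, counting both strands. The windows of Ednrb and Calcrl, which are not shown, held 2 and 3. In the Calcrl window 145 of the 250 bases lie in an annotated exon. It is common: 93.4% of 32851 RefSeq windows of 250 bases held at least 1, with a median of 3. The longer motif AGGAAG (or CTTCCT), which contains the core, occurred 2 times in the printed Ace window and 1 time in that of Calcrl. It did not occur in those of Tek, Kdr or Ednrb, and 29.5% of all windows held it. These are letter matches, and no binding was measured.

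Ramp2, the small accessory protein that turns the calcitonin receptor-like receptor into an adrenomedullin receptor, had the highest mean FPKM of the 10 genes in every group. Its range overlapped that of the next gene in KO embryos, in KO lungs at 18 months and in tumours. Ace stood above it in tumour 1 (119 against 113 FPKM). Plvap did so in tumour 6 (417 against 371 FPKM) and in KO lung 6 (649 against 587 FPKM). In WT embryos Ramp2 stood at 278 ± 13.4 FPKM (mean ± SD, n = 3), followed by Cdh5 (205 ± 18.7) and Pecam1 (195 ± 19.2), whose ranges overlapped. Ace (157 ± 1.72) and Calcrl (97.2 ± 14.4) came next, each apart from its neighbours. Kdr (69.0 ± 5.12) and Plvap (67.2 ± 5.78) overlapped, and Ednrb (43.0 ± 4.47), Tek (28.6 ± 1.66) and Vwf (14.6 ± 2.58) were lowest and apart from one another. At 10 months the WT order was Ramp2 (513 ± 61.9), Plvap (312 ± 14.8), Pecam1 (304 ± 7.44), Ace (280 ± 20.5), Cdh5 (264 ± 5.42) and Calcrl (260 ± 36.1). Plvap and Pecam1 overlapped there, and so did Ace, Cdh5 and Calcrl. Tek (93.8 ± 3.33), Kdr (81.4 ± 2.69), Vwf (71.9 ± 7.81) and Ednrb (34.2 ± 5.59) followed without overlap. Plvap thus moved from the seventh place in the WT embryo to the second in the adult, and Ednrb from the eighth to the last.

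**Figure D1:**
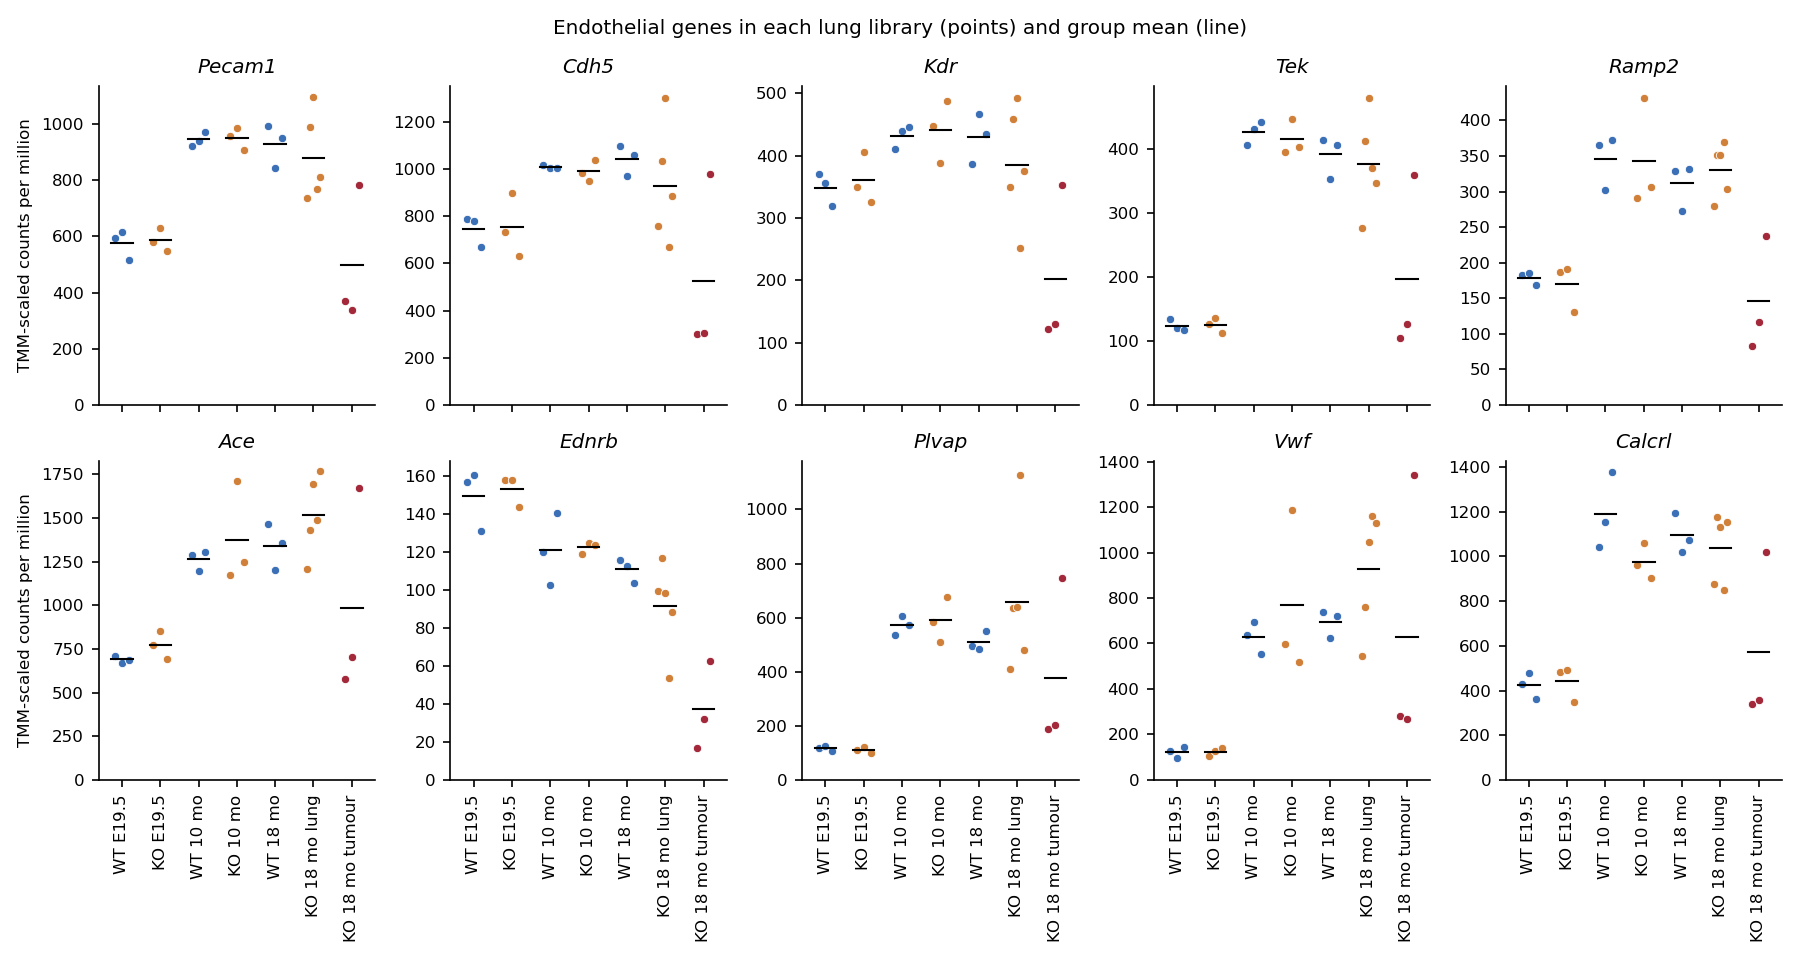
Each panel shows 1 gene, with CPM on a linear axis from 0 and the 7 groups along the bottom; points are libraries and the line is the group mean. Adult lungs stood above embryos for 9 of the 10 genes by group mean and below them for Ednrb, and tumours 1 and 3 lay below every 18-month KO lung for all 10, with tumour 6 apart from them.

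From E19.5 to 10 months in WT lung, 9 of the 10 genes rose and Ednrb did not pass the test. The steps ran from 1.23-fold (Kdr) to 5.10-fold (Vwf), with a median log2 fold change of 0.90 for the 10 genes against 0.00 for all 15619 genes tested. The background was high, since 31.6% of all tested genes were called higher at 10 months and 31.2% lower. In KO lung 8 genes rose and Ednrb fell, while Kdr did not pass the test, with a median of 0.92 (31.1% of 15626 tested genes called higher and 29.4% lower). Age was compared between embryos of unstated sex and males, so age and sex cannot be told apart.

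The junction genes rose least together with Kdr. Pecam1 encodes CD31, an adhesion molecule at contacts between endothelial cells. Pecam1 was at 593, 617 and 518 CPM in WT embryos and at 924, 941 and 972 CPM in WT adults. In KO lungs it was at 579, 632 and 549 CPM in embryos and 957, 985 and 908 CPM at 10 months. Embryos and adults did not overlap in either genotype, and the log2 fold changes were 0.70 ± 0.08 (SE, edgeR adjusted p = 4.55e-05) in WT and 0.69 ± 0.09 (adjusted p = 0.000238) in KO. Cdh5 encodes VE-cadherin, the cadherin of endothelial adherens junctions. Cdh5 was at 788, 780 and 669 CPM in WT embryos and at 1016, 1003 and 1005 CPM in WT adults, a log2 fold change of 0.42 ± 0.08 (edgeR adjusted p = 0.00101). In KO embryos Cdh5 spread from 629 to 898 CPM against 949 to 1036 CPM in KO adults. Its KO change of 0.39 ± 0.13 (edgeR adjusted p = 0.0308) was no longer called without KO embryo 1 (adjusted p = 0.0872), without KO adult 1 (0.0722) or without KO adult 3 (0.0970). In 1 fit over all 23 libraries Cdh5 was called in neither genotype (adjusted p = 0.263 in WT and 0.326 in KO).

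The receptor tyrosine kinases moved unequally. Kdr encodes VEGF receptor 2, the main signalling receptor for VEGF-A on endothelium. Kdr was at 370, 356 and 319 CPM in WT embryos and at 411, 439 and 446 CPM in WT adults. The groups did not overlap, and the log2 fold change was 0.30 ± 0.07 (edgeR adjusted p = 0.00578, but 0.385 in 1 fit over all 23 libraries). In KO lung, KO embryo 2 (405 CPM) lay above KO adult 2 (388 CPM), and the change of 0.29 ± 0.12 was not called (edgeR adjusted p = 0.0571). Without KO embryo 2 the adjusted p was 0.0251, and without KO adult 2 it was 0.0233. Tek encodes TIE2, the receptor for angiopoietins, which keep vessels quiescent. Tek was at 134, 120 and 117 CPM in WT embryos and at 406, 431 and 442 CPM in WT adults, and the groups lay far apart. The log2 fold change was 1.77 ± 0.07 in WT (edgeR adjusted p = 1.32e-07) and 1.73 ± 0.10 in KO (adjusted p = 2.64e-06).

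Calcrl encodes the receptor that pairs with Ramp2 to bind adrenomedullin, and both rose. Calcrl was at 430, 478 and 364 CPM in WT embryos and at 1042, 1156 and 1376 CPM in WT adults. In KO lung it was at 481, 494 and 349 CPM and then at 963, 1059 and 902 CPM. No adult overlapped an embryo, and the log2 fold changes were 1.48 ± 0.13 in WT (edgeR adjusted p = 1.72e-05) and 1.14 ± 0.14 in KO (adjusted p = 0.000188). Ramp2 was at 183, 185 and 169 CPM in WT embryos and at 365, 302 and 372 CPM in WT adults, with log2 fold changes of 0.94 ± 0.09 in WT (edgeR adjusted p = 1.48e-05) and 1.01 ± 0.20 in KO (adjusted p = 0.00347). Ednrb, the endothelin B receptor, which takes up endothelin and triggers nitric oxide release, moved the other way. Ednrb was at 157, 161 and 131 CPM in WT embryos and at 120, 103 and 141 CPM in WT adults, where adult 3 overlapped the embryos. Its log2 fold change was -0.32 ± 0.12 in WT (edgeR adjusted p = 0.0505), and it was called without WT embryo 3 (adjusted p = 0.0203) or without WT adult 3 (0.0112). In KO lung Ednrb was at 158, 158 and 144 CPM in embryos and at 119, 125 and 124 CPM in adults, without overlap, and fell by 0.33 ± 0.07 on the log2 scale (edgeR adjusted p = 0.00292, but 0.358 in 1 fit over all 23 libraries).

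The surface enzyme and the 2 structural or secreted products made the other steps. Ace encodes angiotensin-converting enzyme, which lung capillaries display on their surface. Ace was at 711, 672 and 687 CPM in WT embryos and at 1288, 1195 and 1306 CPM in WT adults, a log2 fold change of 0.86 ± 0.07 (edgeR adjusted p = 5.46e-06). Plvap encodes the protein of the diaphragms that span endothelial fenestrae and caveolae. Plvap was at 119, 125 and 107 CPM in WT embryos and at 537, 606 and 571 CPM in WT adults. No embryo came near an adult, and the log2 fold changes were 2.27 ± 0.08 in WT (edgeR adjusted p = 7.24e-08) and 2.41 ± 0.13 in KO (adjusted p = 2.31e-06). Vwf encodes von Willebrand factor, the clotting protein that endothelium stores and that platelets also carry. Vwf was at 125, 97.9 and 143 CPM in WT embryos and at 636, 693 and 552 CPM in WT adults, a log2 fold change of 2.35 ± 0.15 (edgeR adjusted p = 7.36e-06). In KO lung it was at 103, 127 and 139 CPM and then at 597, 1187 and 520 CPM, where KO adult 2 stood apart from the other two, and the log2 fold change was 2.64 ± 0.35 (edgeR adjusted p = 0.00104). Summed platelet and megakaryocyte markers (9 of 9 in the table, none at 0 in a whole group) also stood higher in adults: 35.5 to 50.9 CPM in WT embryos against 60.2 to 140 CPM in WT adults. Their part in the Vwf difference was not tested.

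By non-overlap, all WT adults stood above all WT embryos for 9 of the 10 genes, where this held for 35.6% of tested genes, and in KO lung for 8 of the 10 (35.5% of tested genes). The difference between the genotypes in the step from E19.5 to 10 months was tested as an interaction in edgeR. No member was called, 0 had an unadjusted p under 0.05, DESeq2 called 0, and 0.156% of 15994 tested genes were called. Calcrl had the largest difference, a KO step smaller by 0.34 ± 0.20 on the log2 scale (edgeR adjusted p = 0.754).

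**Figure D2:**
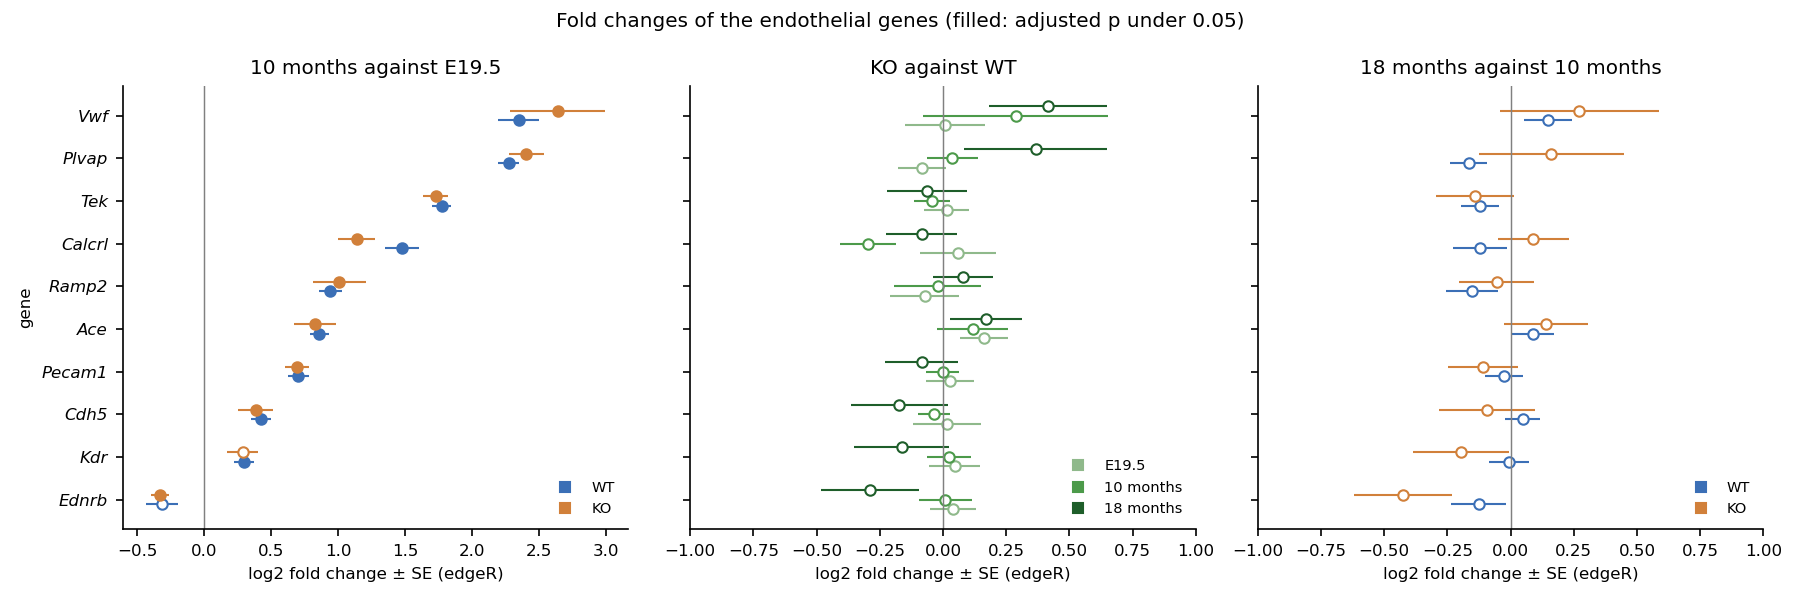
The log2 fold change of each gene (edgeR, bars are standard errors) is shown for 10 months against E19.5 (left), KO against WT at 3 ages (middle) and 18 against 10 months (right); filled points have an adjusted p under 0.05. Filled points occur only in the left panel, where Vwf and Plvap are highest and Ednrb is below 0; the middle and right panels have a narrower axis.

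Because the members did not move by the same factor, their levels were also set against the 2 junction genes of the same library, as log2 CPM minus the mean log2 CPM of Pecam1 and Cdh5. On this relative scale Plvap went from -2.48 ± 0.03 (SD, n = 3) in WT embryos to -0.77 ± 0.09 at 10 months, Vwf from -2.44 ± 0.39 to -0.65 ± 0.18 and Tek from -2.40 ± 0.11 to -1.20 ± 0.05. Calcrl crossed from -0.63 ± 0.09 to 0.28 ± 0.19. These 4 genes thus gained on the junction genes in every WT adult library. Ramp2 (-1.87 ± 0.06 to -1.50 ± 0.16) and Ace (0.08 ± 0.14 to 0.37 ± 0.06) gained less, while Kdr (-0.91 ± 0.04 to -1.18 ± 0.05) and Ednrb (-2.13 ± 0.03 to -3.02 ± 0.21) lost ground. KO lungs had the same order at both ages, for example -2.58 ± 0.04 and -0.73 ± 0.21 for Plvap and -2.11 ± 0.13 and -2.98 ± 0.04 for Ednrb. These relative levels are a description without a test.

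**Figure D3:**
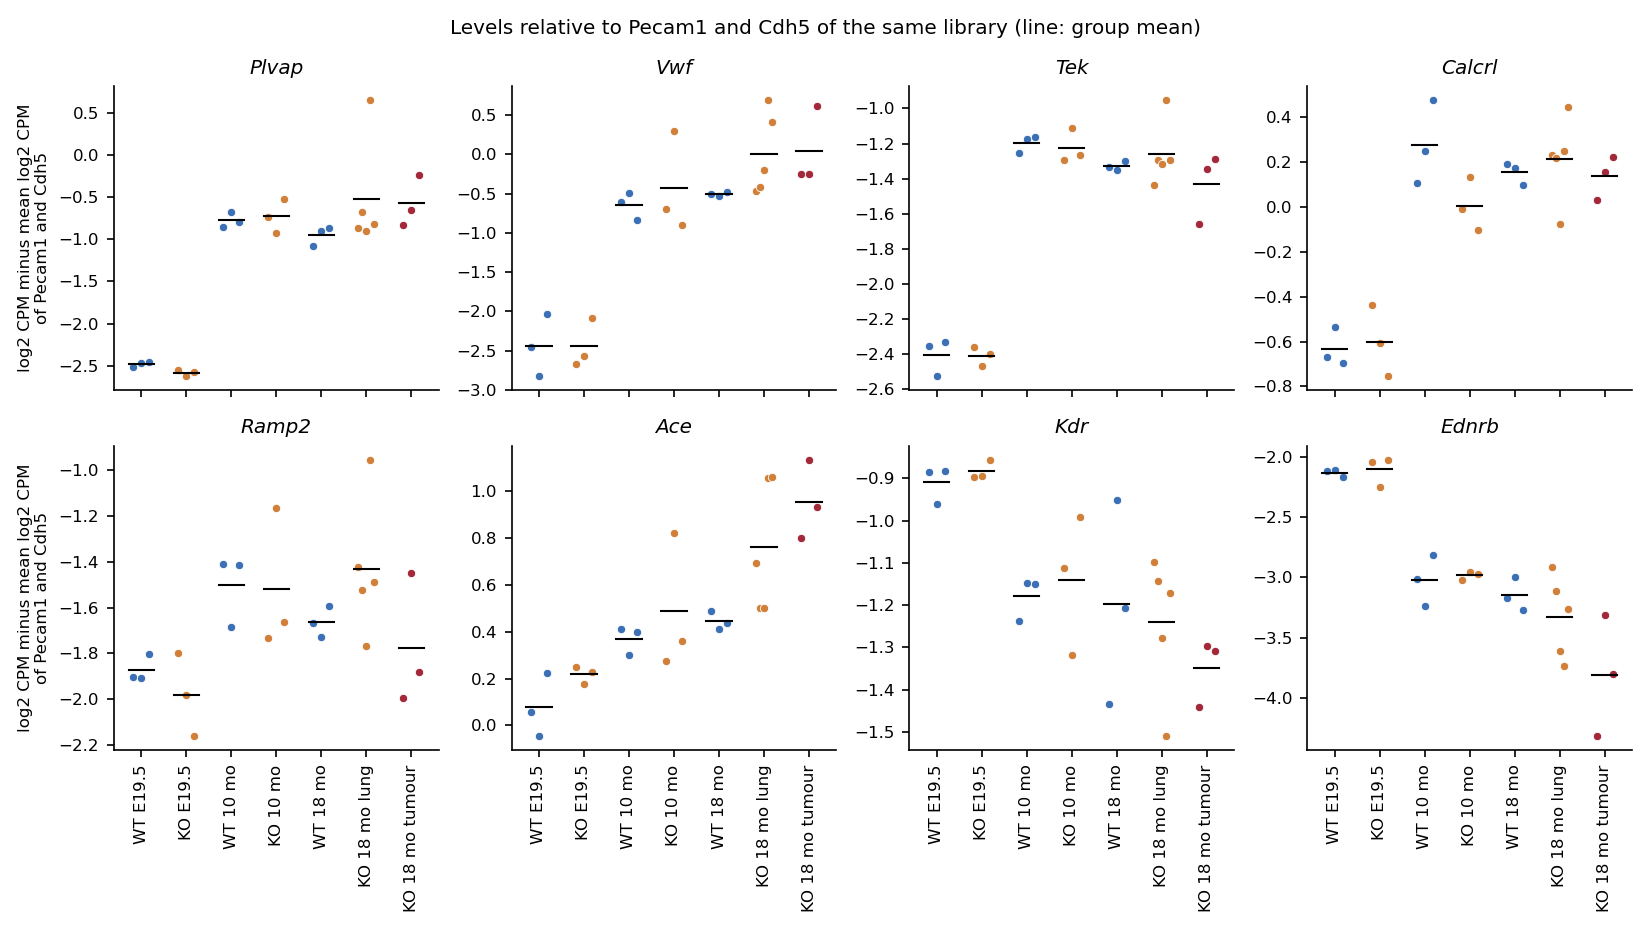
Each panel gives 1 gene as log2 CPM minus the mean log2 CPM of Pecam1 and Cdh5 in the same library (points; line, group mean); panels have separate axes. Plvap, Vwf, Tek and Calcrl step up between embryos and adults and Kdr and Ednrb step down, and KO lung 6 is the single Plvap point above 0.

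Other endothelial genes from lists of known markers moved in both directions between WT embryo and adult. Among all tested genes 31.6% were called higher at 10 months and 31.2% lower. Of 10 general capillary markers, 9 rose and 0 fell, with a median log2 fold change of 1.37. The general capillary genes with the smallest adjusted p were Sema3c (3.47), Bmp6 (2.97), Tmem100 (3.36) and Hpgd (4.80), given as log2 fold changes. Of 12 aerocyte markers 8 rose and 2 fell (median 0.51), with Cyp4b1 at 3.41, Icam1 at 1.79 and Car4, a membrane carbonic anhydrase, at 2.05. Of 20 further general endothelial genes 12 rose and 5 fell (median 0.48), among them Eng, a BMP and TGF-beta co-receptor, at 1.61, Flt1, VEGF receptor 1, at 1.53, Ptprb, the phosphatase that restrains TIE2, at 1.83 and Clec14a at 1.31. Arterial markers rose for 7 and fell for 2 of 10, venous for 5 and 1 of 10, and lymphatic for 6 and 2 of 10. Among them Nr2f2, a transcription factor of vein identity, fell by 0.81 and Prox1, that of lymphatic identity, fell by 1.56 on the log2 scale. Both went against their lists, whose median log2 fold changes were 0.50 (venous) and 0.44 (lymphatic).

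The signalling partners of the members were mixed as well, against the same 31.6% of all tested genes called higher and 31.2% lower. Of 15 VEGF and angiopoietin genes 7 rose and 2 fell (median log2 fold change 0.20), with Esm1 at 3.10 and Nrp2, a VEGF co-receptor, at -0.84. Some of the 15, among them Flt1 and Ptprb, also belong to the endothelial lists, here and in the tumour comparison. Of 5 tested genes of the adrenomedullin and CGRP system 2 rose (Ramp3 at 1.65 and Ramp1 at 0.45) and 2 fell (Adm2 at -1.92 and Calca at -0.62). Of 6 tested endothelin genes 1 rose, the endothelin-converting enzyme Ece1 (1.13), and 3 fell: Edn3 (-1.38), Ednra (-0.66) and Kel (-7.35), the red-cell Kell protein. Of 10 tested renin, angiotensin and kinin genes 2 rose and 5 fell, including Agt (-6.38), the precursor of angiotensin, and Ren1 (-5.73). Steps as large as those of Kel, Agt and Ren1 are uncertain in size where adult levels are near 0. Ren1 had 0 counts in every KO library at 10 months. Among other cells, all 8 dividing-cell markers fell (median -2.49), 7 of 10 fibroblast markers fell and 3 rose, and 7 of 10 leukocyte and macrophage markers rose. Summed fibroblast markers went from 8786 to 12109 CPM in WT embryos to 3461 to 3910 CPM in WT adults. Summed dividing-cell markers went from 215 to 302 CPM to 37.3 to 46.4 CPM. Summed Schwann and neural crest markers went from 116 to 132 CPM to 60.6 to 64.3 CPM, and 5 of 7 fell. The part of these other cells in the members' changes was not tested.

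Loss of Rarres1 gave no called change in any member at any age. At E19.5 0 of the 10 genes were called by edgeR, 0 had an unadjusted p under 0.05 and DESeq2 called 0, with a background of 0% of 15307 tested genes (144 at an unadjusted p under 0.05, and 2 called by DESeq2). Log2 fold changes of KO against WT lay between -0.08 (Plvap) and 0.16 (Ace). At 10 months edgeR and DESeq2 again called 0 of the 10, where edgeR called 1.52% of 15324 tested genes. Calcrl was the 1 member with an unadjusted p under 0.05, which 17.4% of tested genes had: WT adults stood at 1042, 1156 and 1376 CPM and KO adults at 963, 1059 and 902 CPM, so that KO adult 2 overlapped the WT range. Its log2 fold change was -0.30 ± 0.11 (edgeR adjusted p = 0.211). The other 9 genes lay between -0.04 and 0.29 on the log2 scale, with Vwf highest. KO adult 2 held 1187 CPM of Vwf, and without it the highest of the 10 was 0.13.

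At 18 months edgeR called 0 of the 10 between the 5 KO lungs and the 3 WT lungs, 0 had an unadjusted p under 0.05, DESeq2 called 0, and 0.0776% of 15463 tested genes were called by edgeR. Vwf was at 738, 624 and 721 CPM in WT lungs and at 543, 761, 1045, 1160 and 1132 CPM in KO lungs 1, 2, 3, 6 and 7. KO lung 1 lay below the WT range and the other four above it, and the log2 fold change of 0.41 ± 0.23 was not called (edgeR adjusted p = 0.704). Plvap was at 494, 484 and 549 CPM in WT lungs and at 411, 635, 638, 1128 and 481 CPM in KO lungs, and KO lung 6 stood apart from all others. Ednrb was at 116, 113 and 104 CPM in WT lungs and at 99.4, 117, 98.3, 53.9 and 88.6 CPM in KO lungs, with KO lung 6 lowest, and its log2 fold change of -0.29 ± 0.19 was not called (edgeR adjusted p = 0.755). KO lung 6 had the highest value of the 5 KO lungs for Ramp2, Plvap and Vwf and the lowest for Cdh5, Kdr, Ednrb and Calcrl, while KO lung 1 had the lowest for the other six: Pecam1, Tek, Ramp2, Ace, Plvap and Vwf.

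Across 6 lists of endothelial genes outside the members, edgeR called 0 of 70 tested entries at E19.5, 1 of 71 at 10 months and 0 of 71 at 18 months. It called 0%, 1.52% and 0.0776% of all tested genes. At an unadjusted p under 0.05 were 0, 14 and 4 entries (0.941%, 17.4% and 8.04% of all tested genes). The 1 called entry was Mmrn2, an endothelial matrix protein, at 0.40 ± 0.08 on the log2 scale (edgeR adjusted p = 0.0478).

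Between 10 and 18 months no member was called in either genotype by edgeR or DESeq2, and edgeR called 0% of 15321 tested genes in WT and 0% of 15455 in KO (833 and 782 at an unadjusted p under 0.05; DESeq2 called 21 and 11). In WT the member log2 fold changes lay between -0.17 (Plvap, the 1 member with an unadjusted p under 0.05, edgeR adjusted p = 0.891) and 0.15 (Vwf). In KO they lay between -0.43 (Ednrb, edgeR adjusted p = 0.893) and 0.27 (Vwf), and 0 had an unadjusted p under 0.05. All 5 KO lungs at 18 months stood below all 3 at 10 months for Ednrb, and for no other member, where this held for 1.57% of tested genes. The difference between genotypes in this step gave 0 called members and 0% of 15653 tested genes by edgeR (453 at an unadjusted p under 0.05, among them 0 members; DESeq2 called 1 gene and 0 members).

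In the tumours all 10 genes had lower mean levels than in the KO lungs, but the 3 tumours were not alike. Tumours 1 and 3, a pair picked out after the values were seen, stood below every KO lung for all 10 genes, where this held for 22.2% of tested genes. Tumour 6 lay inside the range of the KO lungs for 8 genes, below it for Ramp2 and above it for Vwf. As a share of the lung of the same animal, the members were at 16.9 to 51.8% in tumour 1, at 23.4 to 41.5% in tumour 3 and at 64.2 to 146% in tumour 6. Relative to their own lung, 10, 10 and 3 of the 10 genes were lower in tumours 1, 3 and 6, against 46.9%, 53.1% and 52.8% of tested genes.

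Ramp2 was the 1 member that passed the test over all 3 tumours, with 6.60% of 15459 tested genes called lower in tumours. Ramp2 was at 83.5, 117 and 237 CPM in tumours 1, 3 and 6 and at 279, 351, 351, 370 and 303 CPM in KO lungs 1, 2, 3, 6 and 7. Every tumour was below every lung, which held for 1 of the 10 genes and for 10.4% of tested genes. The log2 fold change was -1.18 ± 0.31 (edgeR adjusted p = 0.0348). The call was lost in 7 of the 8 fits that left out 1 library, that is without tumour 1, without tumour 3 or without any 1 of the KO lungs 1, 2, 3, 6 and 7, with adjusted p between 0.0549 and 0.148 and log2 fold changes between -1.24 and -0.86. With animal as a block, which uses the pairs of animals 1, 3 and 6, Ramp2 was at -1.32 ± 0.27 (edgeR adjusted p = 0.0774) and 0 of the 10 genes were called, where 0.401% of tested genes were called lower.

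The other 9 genes did not pass over all 3 tumours. Ednrb was at 16.8, 32.2 and 62.8 CPM in tumours 1, 3 and 6 against 53.9 to 117 CPM in KO lungs, and only KO lung 6 (53.9 CPM) lay below tumour 6. Its log2 fold change was -1.30 ± 0.40 (edgeR adjusted p = 0.0614). Pecam1 was at 369, 337 and 784 CPM in tumours against 738 to 1098 CPM in KO lungs, at -0.83 ± 0.29 (edgeR adjusted p = 0.0941). Cdh5 was at 299, 304 and 977 CPM in tumours against 668 to 1301 CPM, with tumour 6 above the mean of the KO lungs. Kdr was at 122, 130 and 353 CPM against 252 to 493 CPM, and Tek at 105, 126 and 359 CPM against 276 to 480 CPM. Both receptors showed the same split, with tumours 1 and 3 near one another and tumour 6 among the lungs.

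Calcrl was at 340, 356 and 1021 CPM in tumours against 851 to 1177 CPM in KO lungs. Ace was at 578, 702 and 1669 CPM against 1209 to 1767 CPM, and Plvap at 187, 203 and 745 CPM against 411 to 1128 CPM. In each of these, tumours 1 and 3 were low and tumour 6 was not. Vwf was at 281, 269 and 1341 CPM against 543 to 1160 CPM, so that tumour 6 held the highest Vwf level of all 23 libraries. Its log2 fold change of -0.56 ± 0.54 (edgeR adjusted p = 0.534) was the closest to 0 of the 10. The median over the 10 genes was -0.85 against -0.01 for all tested genes. Of the 10, 6 had an unadjusted p under 0.05, against 29.3% of all tested genes.

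Without tumour 6, edgeR called all 10 genes lower in tumours 1 and 3, with log2 fold changes from -1.90 (Ednrb) to -1.25 (Ace) and adjusted p from 0.000689 to 0.0108. The background was then 14.3% of 15670 tested genes called lower. Leaving out both libraries of animal 6, chosen after the data were seen, also gave 10 called genes, from -2.04 (Ednrb) to -1.25 (Ace), with 15.2% of 15575 tested genes called lower. In these edgeR fits the count was thus 1 with all libraries and 10 without tumour 6. It was 0 when any other single library was left out.

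**Figure D4:**
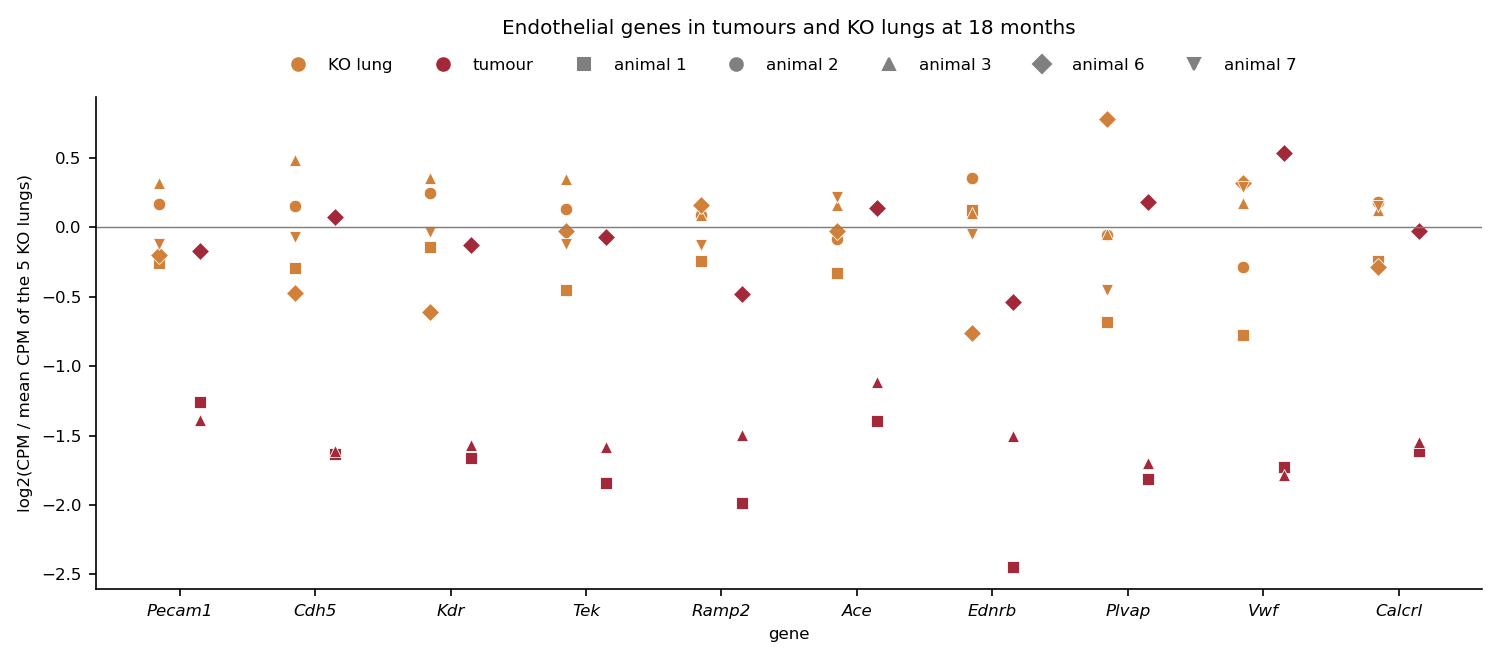
The vertical axis gives log2 of a library's CPM over the mean CPM of the 5 KO lungs, with KO lungs and tumours side by side for each gene and marker shapes for the animals. Tumours 1 and 3 (square, triangle) lie below all KO lungs for every gene, tumour 6 (diamond) lies among or above them except for Ramp2, and the KO lung of animal 6 is high for Plvap and low for Kdr, Cdh5 and Ednrb.

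Against the 3 WT lungs at 18 months edgeR called 0 of the 10 genes over all 3 tumours, with 4 at an unadjusted p under 0.05 (Pecam1, Kdr, Ramp2 and Ednrb; 33.7% of all tested genes), 4 called by DESeq2 (21.7% of its tested genes), and 7.50% of 15346 tested genes called lower by edgeR. All tumours lay below all WT lungs for 4 of the 10 genes, the same Pecam1, Kdr, Ramp2 and Ednrb, where this held for 21.1% of tested genes. Ednrb had the largest difference, at -1.58 ± 0.45 (edgeR adjusted p = 0.0597), and Vwf the smallest at -0.14 ± 0.64. Without tumour 6 edgeR called 10 of 10, from -2.19 (Ednrb) to -1.08 (Ace), with 19.6% of 15504 tested genes called lower, and without tumour 1 it called 1, Ednrb (adjusted p = 0.0471). The tumours are the same as in the comparison with KO lungs, so the pair of comparisons is not independent.

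Relative to Pecam1 and Cdh5 of the same tumour, the ranges of tumours and KO lungs overlapped for all 8 other members. Tek was at -1.43 ± 0.20 (SD, n = 3) in tumours and -1.26 ± 0.18 (n = 5) in KO lungs on the relative log2 scale. Kdr was at -1.35 ± 0.08 and -1.24 ± 0.16, Calcrl at 0.14 ± 0.10 and 0.21 ± 0.19, and Plvap at -0.57 ± 0.31 and -0.52 ± 0.66. Vwf was at 0.04 ± 0.50 and 0.01 ± 0.52. Ramp2 was at -1.99, -1.45 and -1.88 in tumours 1, 3 and 6 and between -1.77 and -0.95 in KO lungs, so that tumours 1 and 6 lay below all 5 lungs. Ednrb was at -4.31, -3.31 and -3.80 in tumours 1, 3 and 6 and between -3.73 and -2.91 in KO lungs, with tumours 1 and 6 again below all 5 lungs. Ace was at 0.80, 1.13 and 0.93 in tumours and between 0.50 and 1.06 in KO lungs.

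Summed levels of other endothelial genes lay below all KO lungs in tumours 1 and 3 for each of 6 lists. In tumour 6 they lay inside the range of the KO lungs for 5 lists and below it for aerocyte markers, at 3450 CPM against 3487 to 4856 CPM. The summed level of 20 further general endothelial genes was 2034 CPM in tumour 1, 2113 CPM in tumour 3 and 5749 CPM in tumour 6, against 4530 to 6601 CPM in KO lungs. All 20 had log2 fold changes below 0 (median -0.70), and 3 passed: the adhesion molecule Icam2 (-1.22), Egfl7 (-1.03) and the tight-junction protein Cldn5 (-1.25). Of 12 aerocyte markers 4 were called lower (Chst1 at -1.15, Cyp4b1 at -1.56, Rprml at -1.94 and Fibin at -1.52). Of 10 general capillary markers 1 was (Gpihbp1 at -0.95), of 10 arterial markers 2 were (Bmx at -1.21 and Hey1 at -1.04), and of 9 tested lymphatic markers 1 was (Fxyd6 at -0.89). The venous marker Car8 was called higher (0.74). Over all 3 tumours 6.6% of 15459 tested genes were called lower, and 1113 genes were called higher. Without tumour 6, 14.3% of 15670 tested genes were called lower and 1832 genes higher. With animal as a block 0.401% of tested genes were called lower. Without tumour 6 the counts called lower were 18 of 20 general endothelial, 9 of 12 aerocyte, 6 of 10 general capillary, 8 of 10 arterial, 5 of 10 venous (1 higher) and 4 of 9 lymphatic genes, and with animal as a block they were 0 in each of these lists.

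Among the members' ligands and partners, Angpt1, the angiopoietin that activates TIE2, was called lower in tumours (-0.96), as was Vegfc (-0.96), a ligand of VEGF receptor 3. They were the 2 of 15 VEGF and angiopoietin genes called, where 6.6% of 15459 tested genes were called lower and 1113 genes higher. With the block 0 of the 15 were called. No tested gene of the adrenomedullin (5) or endothelin (5) lists was called by edgeR over all 3 tumours (2 and 1 at an unadjusted p under 0.05), where Edn1, one of the endothelins that Ednrb binds, was at -0.99 ± 0.44 (edgeR adjusted p = 0.166). Of 7 tested renin, angiotensin and kinin genes Agtr1a, the angiotensin receptor, was called lower (-1.17) and Enpep, an aminopeptidase, higher (0.49). Without tumour 6, 9 of 15 genes of the VEGF and angiopoietin list were called lower. The counts were then 3 of 5 lower for the endothelin list and 0 of 5 for the adrenomedullin list. Among all tested genes 14.3% were called lower in that fit.

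Markers of other cells also differed in the tumours. Summed markers of type 1 epithelium, the flat gas-exchange cells, were at 2887, 4343 and 4769 CPM in tumours 1, 3 and 6 against 5079 to 7154 CPM in KO lungs, so that all 3 tumours lay below. Of 8 type 1 markers 1 was called lower over all 3 tumours and 0 with animal as a block. Without tumour 6, 5 were called lower and 1 higher. The summed level of 10 markers of type 2 epithelium, the surfactant-producing cells, was 98530 CPM in tumour 1, 116557 CPM in tumour 3 and 55579 CPM in tumour 6, against 22684 to 38134 CPM in KO lungs. Of these 8 were called higher, with Slc34a2 at 1.68, Sftpb at 2.22, Lamp3 at 1.28 and Abca3 at 1.00. Over all 3 tumours 1113 of 15459 tested genes were called higher and 6.6% lower. The summed level of 11 pericyte and smooth muscle markers was 459, 386 and 857 CPM in tumours 1, 3 and 6 against 804 to 1153 CPM in KO lungs, and 5 were called lower. For 10 fibroblast markers it was 2473, 1636 and 3191 CPM against 3221 to 3756 CPM, and 4 were called lower. With animal as a block 0 type 2, 2 pericyte and smooth muscle and 0 fibroblast markers were called. Without tumour 6 these counts were 10, 9 and 5. The block called 84 of 15459 tested genes higher and 0.401% lower. Without tumour 6, 1832 of 15670 tested genes were called higher and 14.3% lower. Summed platelet markers, which bear on Vwf, were at 32.2 to 52.0 CPM in tumours against 56.3 to 112 CPM in KO lungs. No marker of these 5 lists was at 0 in a whole group. Summed Schwann and neural crest markers were at 78.4 to 131 CPM in tumours against 29.1 to 64.0 CPM in KO lungs. Of 5 tested 1 was called higher and 0 lower. Tumour 6 had the lowest type 2 level and the highest endothelial, pericyte and fibroblast levels of the 3 tumours. The part of the tumours' cell make-up in the members' levels was not tested.

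**Figure D5:**
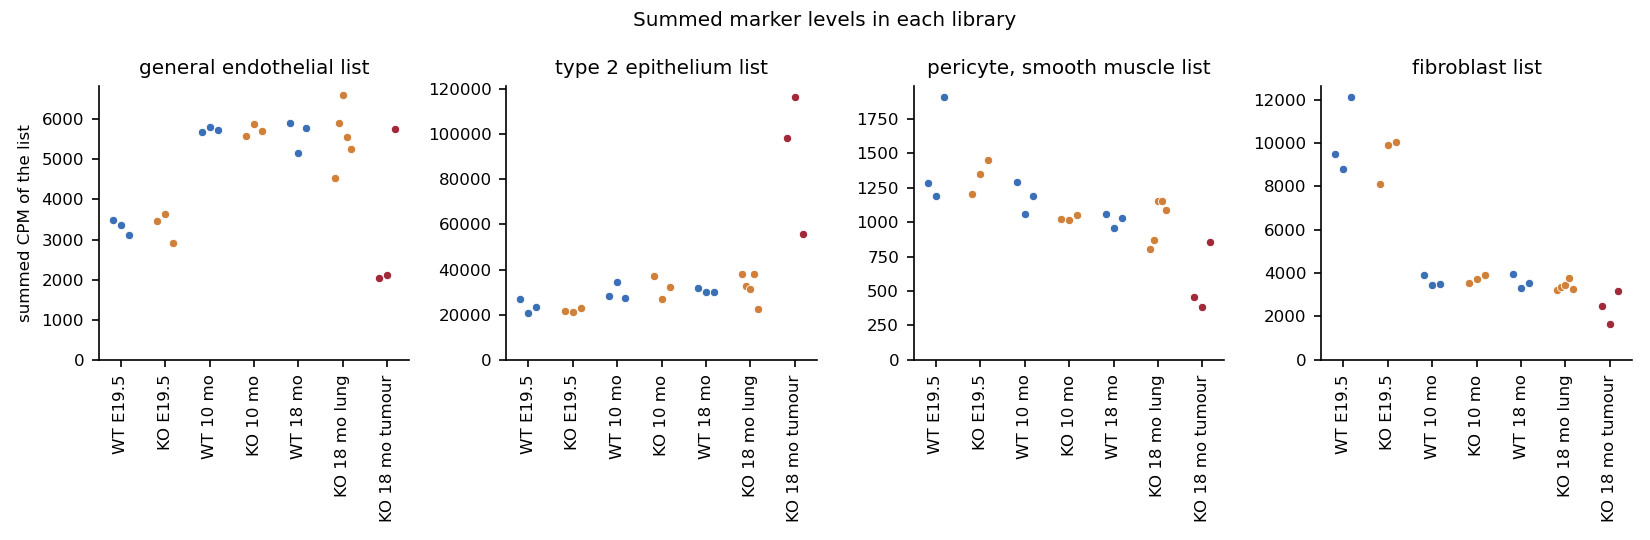
Each panel gives the summed CPM of a marker list (linear axis from 0) in every library, by group. Tumours 1 and 3 lie far below the lungs for general endothelial genes (2034 and 2113 CPM) and far above them for type 2 epithelium, with tumour 6 at 5749 CPM among the lungs in the first panel and nearest to them in the second.

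The genes whose pattern over the 7 groups was most like the mean of the 10 members were Slco3a1, Slc2a12, Chst1, Ccdc176, Cdo1, Pkia, Grap and Gipc2. Likeness was the root mean square difference of centred group means of log2(CPM + 1), and it ran from 0.0677 (Slco3a1) to 0.0784 (Gipc2) among 12586 candidate genes with at least 5 CPM in 1 group. Among the members Ramp2 lay closest to the members' own mean (0.115), followed by Calcrl (0.141) and Pecam1 (0.172). Ednrb (0.782), Vwf (0.758) and Plvap (0.595) lay farthest from it. The nearest genes to Tek were Tm4sf1 (0.0529) and Phactr1 (0.0545), to Kdr Ablim3 (0.0357) and Limch1 (0.0587), to Pecam1 Rusc2 (0.0424) and to Cdh5 Arhgef10 (0.0601) and Tuba1a (0.0622). The nearest to Ramp2 were Acvrl1 (0.0617) and Adcy5 (0.0672), to Calcrl Kif9 (0.0583) and Ddo (0.0629), and to Ace Six4 (0.0495) and Zfp697 (0.0590). For the members that stood apart they were Fabp3 (0.0995) and Fibin (0.111) for Ednrb, Ehd4 (0.0905) and Tnfsf10 (0.0966) for Plvap and Gpr18 (0.0773) and Stat4 (0.0915) for Vwf. Gpr18 and Stat4 were very low in WT embryos, with means of 0.23 and 0.533 on the log2(CPM + 1) scale. At such levels the added 1 shrinks differences, so their likeness to Vwf is not one of fold change.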

How the data were processed

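Total RNA from 23 mouse lung and lung tumour libraries was sequenced. Per the submitters' processing notes the authors worked on build mm10 with RSEM 1.3.0, STAR 2.5.2b and Trimmomatic 0.36, and deposited expected counts per gene and FPKM values. Strand setting and annotation version are not given in the sources used here. Library totals were 23.7 to 46.6 M counts. Expected counts were rounded to whole numbers, low genes were removed with edgeR's filterByExpr, and TMM factors and the quasi-likelihood test were applied separately to the groups of each comparison (edgeR 4.0.16, R 4.3.3), with Benjamini-Hochberg adjustment over all tested genes. Alternatives were DESeq2 1.42.0, RLE factors, no filter, 1 fit over all 23 libraries, limma 3.58.1 on the deposited log2(FPKM + 0.1) and log2(FPKM + 1) (genes with mean FPKM of at least 0.1), leaving out each library, and the replicate number as a block. The fits of the comparisons were tested on simulated counts, drawn independently for each library. That simulation held no shared animals and no outlying library, and its outcome is not given here.

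Codes 1, 3 and 6 were taken to pair tumours with lung of the same animal. The correlations of their deviations were 0.457, 0.0116 and 0.0614, while tumour 3 correlated more with lung 2 (0.254) and tumour 6 with lung 7 (0.268). In the other comparisons the shared numbers are numbers only. Within groups, library pairs differed by more than counting error (chi-square per degree of freedom 6.72 to 228). Named were the 10 members, up to 4 genes per list and comparison with the smallest adjusted p, the 8 nearest profiles to the members' mean and the 2 nearest to each member, and Rarres1. One of the nearest genes is not reported here. The members and lists were chosen with earlier results of these data known. Figures were drawn with matplotlib 3.10.9.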

Additional observations from a re-analysis of the deposited data

Results flagged for a closer look

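In the 5 non-tumour KO lungs at 18 months, Plvap relative to Pecam1 and Cdh5 was 0.66 on the log2 scale in KO lung 6, against -0.91 to -0.67 in KO lungs 1, 2, 3 and 7. The gap to the nearest of the others was 0.849 of the whole range, above Dixon's 95% critical value for 5 samples. It was the single such value among 20 sets of 5 examined (10 genes, as CPM and relative to the junction genes), and chance gives about 1 in 20. The sets are not separate, since they share values, and Pecam1 and Cdh5 mirror each other on the relative scale. On the CPM scale the same library held 1128 CPM of Plvap against 411 to 638 CPM. Leaving out KO lung 6 changed no member's call between KO and WT at 18 months.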

How the results depend on the processing

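In the comparisons of KO with WT at 3 ages, of 18 with 10 months in both genotypes, and in both interactions, 0 of the 10 genes were called under every alternative run. From E19.5 to 10 months, 7 to 10 genes were called in WT and 7 to 10 in KO over all alternatives, against 9 in each fit reported. In the comparison of tumours with KO lung the count was 1 as reported, 3 with DESeq2, 7 in 1 fit over all libraries, 3 with limma on log2(FPKM + 0.1), 2 on log2(FPKM + 1) and 0 with the replicate block. Leaving out 1 library gave 0 to 10. Leaving out animal 6 (tumour and lung) gave 10, and the replicate block over the 3 animals with both tissues gave 0, both chosen after the data were seen. In the comparison of tumours with WT lung the count was 0 as reported, 4 with DESeq2, 7 in 1 fit over all libraries, 1 with limma at either pseudocount and 0 to 10 leaving out 1 library. The replicate block gave 10 there. Over all genes, tumours against WT lung gave 2358 calls among 15346 tested genes, and 2245 with the block. DESeq2 gave 4093 of 18903, 1 fit over all libraries 5417 of 16257, and limma 2290 (+ 0.1) and 2236 (+ 1) of 16073. In that comparison the numbers do not mark shared animals, and by construction the block leaves the fit resting on numbers 1 and 3, without tumour 6.

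In the comparisons without tumours the replicate block changed no member's call, and in none of them did every sample correlate best with its own number. In 1 fit over all libraries, which share 1 spread, Cdh5 and Kdr in WT and Cdh5 and Ednrb in KO were no longer called from E19.5 to 10 months, and limma at either pseudocount lost Cdh5 in KO. Over all genes, the tumour comparison with KO lung gave 2134 calls among 15459 tested genes, and 146 with the block. DESeq2 gave 3398 of 19135, 1 fit over all libraries 5158 of 16257, and limma 2213 (+ 0.1) and 2061 (+ 1) of 16103. There were 4066 of 15670 without tumour 6 and 1074 of 15627 without tumour 3. KO against WT at 10 months gave 233 calls over all genes, 586 with DESeq2, 63 with the block and 41 in 1 fit over all libraries. Of 1630 alternative values, no called value changed sign, and 92 uncalled ones did. The members had at least 491 counts in a library, and the effect of depth was not tested.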
